A study of Homo sapiens with 8 samples.

Results

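The sites that the glucocorticoid receptor (GR) occupied after its own ligand were compared with the sites that the progesterone receptor (PR) occupied after its own ligand, in the same cells, at the same dose and time. The cells were T47D A1-2, a derivative of the established human breast cancer line T47D which, per the series' design text, carries GR as well as PR. Binding was mapped by ChIP-seq: sonicated chromatin is pulled down with an antibody to the receptor, its DNA is sequenced, and stretches with many reads are listed as peaks. GR was recovered with a mix of 2 antibodies after 60 min of 10 nM dexamethasone (Dex), a synthetic glucocorticoid. PR was recovered with 1 antibody after 60 min of 10 nM R5020, a synthetic progestin. All cells had been grown in charcoal-treated serum, which removes steroids, and then starved of serum. Further lists, used for comparison, came from untreated A1-2 cells (GR and PR), from GR in A1-2 cells after 60 min of 10 nM R5020, and from PR in T47D MTVL WT cells, called MTVL cells here, without hormone and after 60 min of 10 nM R5020. The GR list after Dex held 18415 usable peaks and the PR list after R5020 held 28262, which is 46677 of the 93493 usable peaks in the 8 lists of the series, input included. Peaks counted if they lay on chromosomes 1 to 22 or X and overlapped no peak of the A1-2 input DNA. Each condition had 1 library, so no value below could be set against a spread between replicates, and p-values were not computed. Receptor, ligand and antibody changed together between the lists and cannot be told apart.

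GR and PR are ligand-activated transcription factors of the same steroid receptor family. Each enters or stays in the nucleus when its hormone binds, and the DNA-binding domains of both recognise closely similar palindromic hormone response elements. In mammary epithelium PR drives expansion and side-branching of the ducts, and GR takes part in alveolar differentiation and milk protein expression.

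The strength of a site was read from the deposited score of its peak, taken as the peak caller's p on a -10 log10 scale. It ranks peaks within 1 list and is not a level that can be set against another list. The GR scores reached 3203, with a median of 193, and the PR scores 3226, with a median of 244, and both began at about 100. Many peaks shared the score 3100, so scores from 3100 up were treated as a ceiling, which held 81 GR peaks and 659 PR peaks. Read depth was unknown, and peaks are not replicates. Intervals in parentheses are 95% intervals over peaks and cover counting error only. Positions are in the hg19 build, counted from 1, and peaks are named by position because no gene was placed in that build here.

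The lists shared most of their strong sites. Of the GR peaks 26.2% had no PR peak, and of the PR peaks 51.8% had no GR peak, where an overlap of 1 bp counted as shared. Merged across both lists the peaks made 32938 regions, of which 13465 held both receptors, 4825 held GR alone and 14648 held PR alone. A GR and a PR peak that were each other's longest overlap were taken as a pair, which gave 13488 pairs. A further 102 GR peaks and 126 PR peaks overlapped the other list but were in no pair, because their partner had a longer overlap with another peak. In 83.9% of the pairs the midpoints were within 100 bp of each other.

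The share of peaks held by 1 receptor alone went down with the score in every step of the ranking. Among GR peaks it was 52.5% in the lowest decile of the score, 28.4% in the fifth, 9.56% in the eighth and 1.41% in the highest. Among PR peaks it was 79.5% in the lowest decile, 62.2% in the fifth, 34.2% in the eighth and 4.39% in the highest. Of the 4825 GR peaks without PR, 1614 (33.5%) scored under 120 and 67 (1.39%) scored 500 or more. Among GR peaks with PR these shares were 11.5% and 21.02%. Of the 14648 PR peaks without GR, 2967 (20.3%) scored under 120 and 1376 (9.39%) scored 500 or more. Among PR peaks with GR they were 5.64% and 46.7%. Peaks of 1 receptor alone overlap none of the other by definition, which removes the shortest distances, and no background share was computed. A PR peak lay within 1000 bp of 3.15% and within 10000 bp of 35.5% of the GR peaks without PR, and the median distance was 19.5 kb. For the PR peaks without GR the shares were 2.14% and 27.5%, and the median distance to a GR peak was 31.1 kb.

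**Figure D1:**
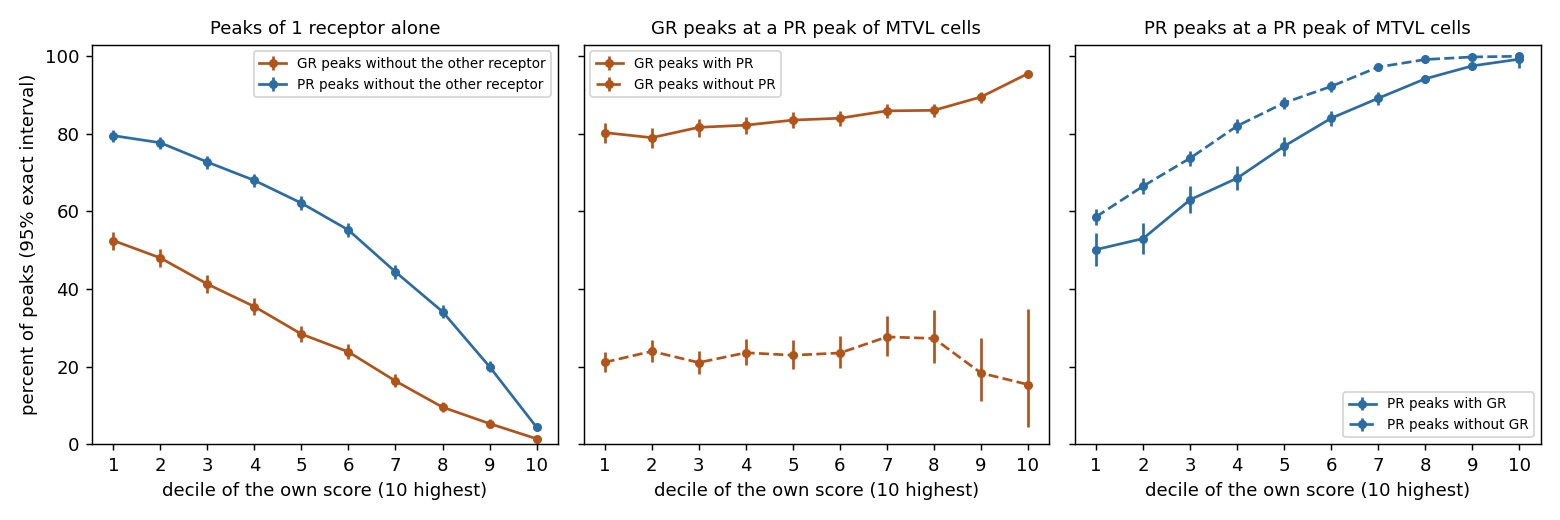
Percent of peaks without the other receptor by decile of the own score (left; GR orange, PR blue), and percent of GR peaks (middle) and PR peaks (right) that lay at a PR peak of MTVL cells, for peaks with the other receptor (solid) and without it (dashed). Bars are 95% exact intervals over peaks. Single-receptor peaks thin out to 1.41% and 4.39% in the highest decile, and in the right panel the dashed points lie above the solid ones in every decile, with a difference whose interval holds 0 in the highest.

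The 5 sites that ranked highest in both lists had no A1-2 peak before hormone. The pair of highest mean rank lay on chromosome 3 from 104329905 to 104330581, with a GR score of 3055 and a PR score of 3208, and a PR score of 2421 in MTVL cells. The next lay on chromosome 10 from 21472952 to 21473741, with 2372 for GR and 3202 for PR. The site at 93835136 to 93836310 of chromosome 9 had scores of 2556 and 3110. The one at 55034849 to 55035774 of chromosome 7 had 2143 and 3207. The site on chromosome 14 from 95737735 to 95739063 had the highest GR score of the list, 3203, with a PR score at the ceiling of 3100. It was the 1 site of these 5 that also had a GR peak after R5020, with a score of 235.

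The receptors ranked their common sites in a related but not the same order. Over the 13488 pairs the scores had a Spearman correlation of 0.54, a description over sites that share cells, genome sequence and calling method. With each score turned into its percentile among the pairs (0 lowest, 100 highest), the median absolute difference between the GR and the PR percentile was 16.9 points, and 65.4% of the pairs differed by less than 25 points. Without scores at the ceiling the correlation was 0.48. Taken in lists of equal length, 540 of the first 1000 GR peaks by score overlapped one of the first 1000 PR peaks (54.0%, 50.9 to 57.1), while 992 of the same 1000 overlapped some PR peak. Of the first 5000 GR peaks 58.3% (56.9 to 59.7) lay in the first 5000 PR peaks, and of the first 10000 60.4% (59.4 to 61.3) lay in the first 10000. The same measure between the PR lists of A1-2 and MTVL cells gave 66.3% (64.9 to 67.6) at 5000 and 68.9% (68.0 to 69.8) at 10000, above the GR values at those lengths. At 1000 the order was the other way, with 33.1% (30.2 to 36.1). The first 1000 MTVL peaks were not resolved by score, because 2021 MTVL peaks stood at the ceiling and ties were taken in order of position.

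**Figure D2:**
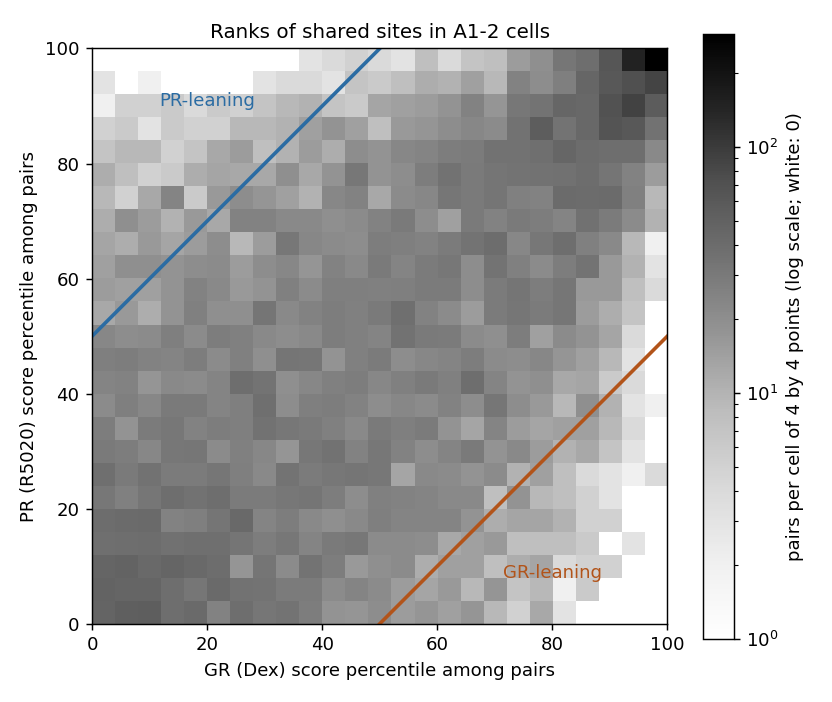
Pairs of GR and PR peaks by the percentile of their GR score after Dex (horizontal) and of their PR score after R5020 (vertical), counted in cells of 4 by 4 points on a log grey scale. Lines mark a difference of 50 points, beyond which 531 pairs are GR-leaning and 577 are PR-leaning, and the darkest cell is at the top right, where sites are strong for both.

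Pairs whose percentiles differed by 50 points or more were called leaning. GR-leaning pairs numbered 531, which is 3.94% of the pairs (3.61 to 4.28), and PR-leaning pairs 577, which is 4.28% (3.94 to 4.63). These classes were set by the scores, so their GR and PR scores are a description. GR-leaning pairs had a median GR score of 436 (238 to 2856) and a median PR score of 150 (100.02 to 423). PR-leaning pairs had a median GR score of 122 (100.04 to 213) and a median PR score of 1117 (470 to 3122). The ranges given here are the lowest and highest values. Ranking in the whole lists in place of the pairs gave 2.52% GR-leaning and 7.59% PR-leaning pairs, a gap that the unequal lists bring about, since a larger part of the PR list is unshared and low-scoring. Among the pairs the intervals of the 2 shares overlapped. Both scores are ranked over the same pairs there, which by itself favours similar shares. No balance between the receptors can be read from them.

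The pair that leaned furthest to GR lay on chromosome 18, with a GR peak from 77646959 to 77647652 (score 2101) over a PR peak from 77646965 to 77647522 (score 109), a difference of 95.6 points. No PR peak was called there in MTVL cells. On chromosome 9 a GR peak from 125136059 to 125136792 scored 965, against 110 for PR from 125135966 to 125136562 and 147 for PR in MTVL cells. The site at 42495836 to 42496636 of chromosome 8 had scores of 709 for GR and 106 for PR, and no PR peak was called in MTVL cells. On chromosome 6 from 42121035 to 42121713 they were 808 and 119, with 106 in MTVL cells. These 4 pairs had A1-2 PR scores of at most 119, near the lowest score of 100, and none had a GR peak after R5020 or an A1-2 peak without hormone. The fifth pair, on chromosome 3 from 60490274 to 60492173, was of another kind. Its GR peak after Dex scored 915 and its PR peak 132, but GR after R5020 stood at 3100 there, and GR and PR peaks of 112 and 232 were present without hormone.

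The pair that leaned furthest to PR lay on chromosome 17, with a PR peak from 46025816 to 46026764 (score 2947) over a GR peak from 46025864 to 46026772 (score 100.97), a difference of -94.0 points. On chromosome 18 from 9366137 to 9366744 PR scored 2899 and GR 104. The site at 48013067 to 48014697 of chromosome 19 had 2360 for PR and 100.93 for GR. At 38022899 to 38023595 of chromosome 9 PR scored 2910 and GR 106, and at 56135757 to 56136481 of chromosome 19 PR scored 2155 and GR 103.46. In MTVL cells PR stood at the ceiling of 3100 at the first 4 of these sites and at 2602 at the fifth. None of the 5 had an A1-2 peak without hormone or a GR peak after R5020.

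Strong peaks without any counterpart were few in both lists. In the highest 10% of the GR list by score, 26 peaks had no PR peak (1.41%, against 26.2% of the whole list). In the highest 10% of the PR list, 124 peaks had no GR peak (4.39%, against 51.8% of the whole list). The 26 GR peaks scored from 718 to 2637 and were wide, with a median of 1065 bp. GR peaks with PR in the highest 10% had a median width of 859 bp. The 124 PR peaks scored from 1325 to 3100, with a median width of 795 bp against 881 bp for strong PR peaks with GR. Counted with midpoints within 200 bp in place of overlap, the numbers were 195 and 355, since wide peaks that overlap off centre then count as unshared. With the PR list cut by score to the length of the GR list the order turned, to 45 GR peaks and 36 PR peaks, so the larger number for PR depended on its longer list.

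The highest GR peak without PR lay on chromosome 6 from 167312015 to 167316199 (score 2637). The nearest PR peak was 26.2 kb away and scored 317. The next lay on chromosome 8 from 143884133 to 143886079 (2229), with a PR peak of 711 at 122 kb. On chromosome 12 from 131771995 to 131773229 the GR score was 2144. It was 1999.7 at 80975251 to 80976323 of chromosome 17 and 1871 at 142328386 to 142330163 of chromosome 8. None of these 5 sites had a peak in any other list used here, including GR after R5020 and PR in MTVL cells. The highest PR peak without GR lay on chromosome 20 from 3998643 to 3999765, at the ceiling of 3100 in both cell lines. GR after R5020 had a peak of 154 there, though GR after Dex had none, and the nearest GR Dex peak was 11.7 kb away with a score of 309. The others were at 81665046 to 81666427 of chromosome 8 (3073), 22004395 to 22005123 of chromosome X (2685), 39174552 to 39175146 of chromosome 17 (2638) and 11648324 to 11649004 of chromosome 2 (2598). MTVL PR stood at 3100 at each of them.

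Whether receptor-biased sites of A1-2 cells were PR sites in a separate PR library was read from MTVL cells after R5020, the line that the labels call the control. The classes were set in part by the A1-2 PR score, with which the MTVL share went up (from 50.2% of the PR peaks with GR in the lowest decile to 99.3% in the highest), so the direction of the difference between them follows from how they were chosen, and the shares are a description. Of the 577 PR-leaning pairs, 568 lay at a MTVL PR peak (98.4%, 97.1 to 99.3), against 308 of the 531 GR-leaning pairs (58.0%, 53.7 to 62.2) and 86.6% (86.0 to 87.2) of the pairs in between. The difference between the leaning classes was -40.4 points (-44.7 to -36.1). All 124 strong PR peaks without GR lay at a MTVL PR peak (100%, 97.1 to 100), and so did 99.3% (98.9 to 99.5) of the strong PR peaks with GR, a difference of 0.74 points (-2.28 to 1.14). Of the 26 strong GR peaks without PR, a set chosen for having no PR peak in A1-2 cells, 4 did (15.4%, 4.36 to 34.9). Strong GR peaks with PR did in 95.5% (94.5 to 96.4) of 1815 cases. Over the whole lists, 22.9% of the GR peaks without PR and 80.02% of the PR peaks without GR were MTVL PR sites, against 85.8% and 85.6% of those with the other receptor. PR peaks of like score showed the opposite order. In 9 of the 10 deciles of the PR score the PR peaks without GR were MTVL PR sites more often than those with GR, with intervals of the difference above 0. In the fourth decile of 10, for example, the shares were 82.0% and 68.6%, a difference of 13.5 points (10.02 to 16.97). The deciles were not compared without chromosome 16 from 34 to 36 Mb, where peaks are densely packed. Over the whole lists, leaving it out gave MTVL shares of 80.3% for PR peaks without GR and 86.9% for those with GR. Among GR peaks without PR this share stayed between 15.4% and 27.7% over the deciles of the GR score, and among GR peaks with PR it went from 80.3% in the lowest to 95.5% in the highest decile.

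By quintile of the mean of both percentiles, the difference between GR-leaning and PR-leaning pairs was -46.9 points (-53.9 to -39.2) in the second, -40.1 (-46.3 to -33.9) in the middle and -24.4 (-34.9 to -15.2) in the next higher one. The outer quintiles held 2 GR-leaning and 0 PR-leaning pairs. At a like mean the GR-leaning pairs still had the lower PR percentiles (median 12.3 over the class, against 76.2), so this split does not hold the PR rank fixed. A split by the PR percentile itself, which does so more closely, was added after seeing the data and gave smaller differences. In the middle quintile of the PR percentile, 96.0% of 522 pairs in the lowest GR quintile lay at a MTVL PR peak and 86.6% of 277 pairs in the highest GR quintile, a difference of -9.33 points (-14.1 to -5.27). With midpoints within 200 bp in place of overlap it was -5.004 points (-10.4 to -0.18). The differences were -10.8 points (-18.6 to -4.08) in quintile 2 and -3.42 points (-5.88 to -0.61) in quintile 4 of the PR percentile, where quintile 5 is the highest. In the lowest PR quintile it was -7.42 points (-19.5 to 4.14) and in the highest -1.01 points (-1.63 to 2.98), both with intervals that hold 0. In PR quintiles 2 to 4, then, pairs with a high GR rank were less often PR sites of MTVL cells. In the middle PR quintile the median PR score was 435 in the lowest and 487 in the highest GR quintile. What lies behind the difference in MTVL share was not tested. Without chromosome 16 from 34 to 36 Mb, a stretch of densely packed peaks, the difference in quintile 4 was -2.17 points (-4.39 to 0.44), and that in the middle quintile -6.76 points (-11.2 to -2.98).

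Where a pair lay at a MTVL PR peak, the ranks of all 3 libraries could be set side by side. Over 11594 such pairs the PR percentile of A1-2 cells had a Spearman correlation of 0.75 with the PR percentile of MTVL cells, the GR percentile one of 0.56 with the PR percentile of A1-2 cells and one of 0.32 with the PR percentile of MTVL cells. Without scores at the ceiling, over 9738 pairs, these were 0.65, 0.47 and 0.19. PR in A1-2 cells thus ranked sites more like PR in the other line than like GR in the same cells. The points share the calling method and the genome, the PR libraries share their antibody and ligand, and the first and second pairing share the A1-2 PR library.

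**Figure D3:**
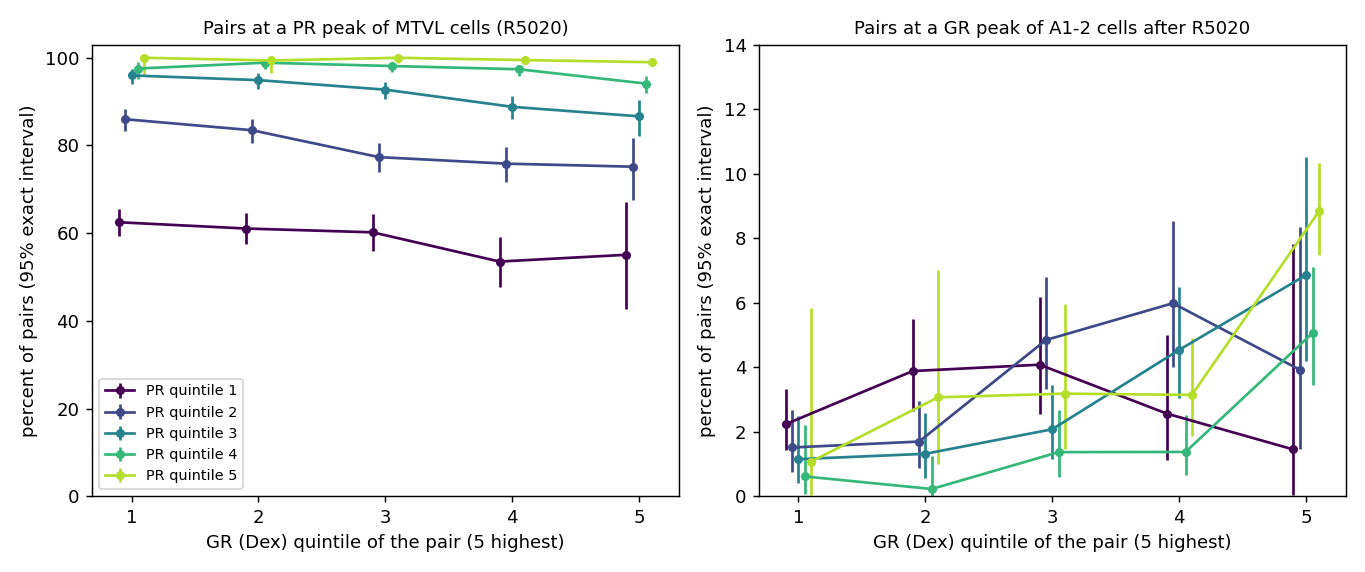
Percent of pairs at a PR peak of MTVL cells (left) and at a GR peak of A1-2 cells after R5020 (right) by quintile of the GR percentile after Dex, with 1 line for each quintile of the PR percentile. Bars are 95% exact intervals over pairs. At left the middle PR quintile goes from 96.0% in the lowest to 86.6% in the highest GR quintile, and at right the highest GR quintile of the highest PR quintile stands at 8.83%.

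GR after R5020 gave a short list of 1185 peaks, from 1 library of unknown depth. Absence from it does not show that GR was absent from a pair under the progestin. The list covered 471 of the 13488 pairs (3.49%, 3.19 to 3.82), 13 of the GR-leaning pairs (2.45%, 1.31 to 4.15) and 6 of the PR-leaning pairs (1.04%, 0.383 to 2.25). The difference of 1.41 points (-0.17 to 3.19) between the leaning classes has an interval that holds 0. Without chromosome 16 from 34 to 36 Mb the list covered 352 of 13305 pairs (2.65%), 10 of 521 GR-leaning and 6 of 577 PR-leaning pairs. In PR quintiles 3 to 5 the share was higher where GR after Dex ranked high. In the middle PR quintile it was 1.15% in the lowest and 6.86% in the highest GR quintile, a difference of 5.71 points (2.94 to 9.37). In PR quintile 4 the difference was 4.44 points (2.27 to 6.52) and in the highest 7.75 points (2.81 to 9.49). In PR quintile 1 it was -0.79 points (-2.41 to 5.57) and in quintile 2 it was 2.41 points (-0.00599 to 6.83), both with intervals that hold 0. Without the stretch of chromosome 16 the difference was 0.19 points (-1.32 to 6.61) in quintile 1 and 2.62 points (0.52 to 6.84) in quintile 2. In the middle quintile it was 4.43 points (1.88 to 7.90) and in quintile 4 it was 3.04 points (1.02 to 4.91). In the highest it was 7.29 points (2.36 to 9.01). Pairs in the highest quintile of both receptors had the highest share of the 25 combinations, 140 of 1586 (8.83%, 7.48 to 10.3). GR R5020 peaks had a median width of 978 bp, and with midpoints within 200 bp in place of overlap the difference in the middle PR quintile was 1.34 points (-0.295 to 3.93). Of the 26 strong GR peaks without PR, 0 had a GR peak after R5020, which with an exact interval allows a share of up to 13.2%. Strong GR peaks with PR had one in 156 of 1815 cases (8.60%), inside that interval, so a difference was not detectable.

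Before hormone few pairs of any class had a peak. Over all 13488 pairs, untreated GR peaks lay at 198 (1.47%), untreated PR peaks of A1-2 cells at 221 (1.64%) and untreated PR peaks of MTVL cells at 152 (1.13%). Untreated GR peaks lay at 9 of the 531 GR-leaning pairs (1.69%, 0.778 to 3.19) and at 1 of the 577 PR-leaning pairs (0.173%, 0.00439 to 0.962). Untreated PR peaks of A1-2 cells lay at 15 GR-leaning pairs (2.82%, 1.59 to 4.62) and 1 PR-leaning pair (0.173%). Outside chromosome 16 from 34 to 36 Mb the GR-leaning numbers were 8 and 12 of 521. Untreated PR peaks of MTVL cells lay at 0 of the GR-leaning and 9 of the PR-leaning pairs. None of the 124 strong PR peaks without GR and none of the 26 strong GR peaks without PR overlapped an untreated peak of A1-2 cells. Such overlaps were rare among strong peaks with the other receptor too, at 0.777% (untreated GR) and 1.22% (untreated PR) of the PR peaks and 2.42% and 2.98% of the GR peaks. Untreated PR peaks of MTVL cells lay at 5 of the 124 (4.03%, 1.32 to 9.16) and at 3.70% of the strong PR peaks with GR. They lay at 0 of the 26 and at 3.53% of the strong GR peaks with PR.

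Neighbouring sites had more similar rank differences the closer they lay. Between neighbouring pairs less than 2 kb apart, the rank differences (GR minus PR percentile) had a Spearman correlation of 0.32 over 727 neighbours. It was 0.28 from 2 to 5 kb, 0.16 from 5 to 10 kb, 0.10 from 10 to 50 kb and 0.02 from 50 to 200 kb, and beyond 1 Mb it was -0.01 over 578 neighbours. The mean of both percentiles, a measure of strength, was less alike between neighbours, with 0.15 under 2 kb and 0.08 from 2 to 5 kb. Neighbours that joined a GR-leaning and a PR-leaning site numbered 0 of 1806 within 5 kb and 1 of 989 from 5 to 10 kb. From 10 to 50 kb there were 14 of 3359. Such neighbours are rare by the size of the classes alone, which hold 3.94% and 4.28% of all pairs. Neighbours were examined after seeing the data. Neighbours share local sequence, copy number and mappability, and without the dense stretch of chromosome 16 the first value was 0.30.

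**Figure D4:**
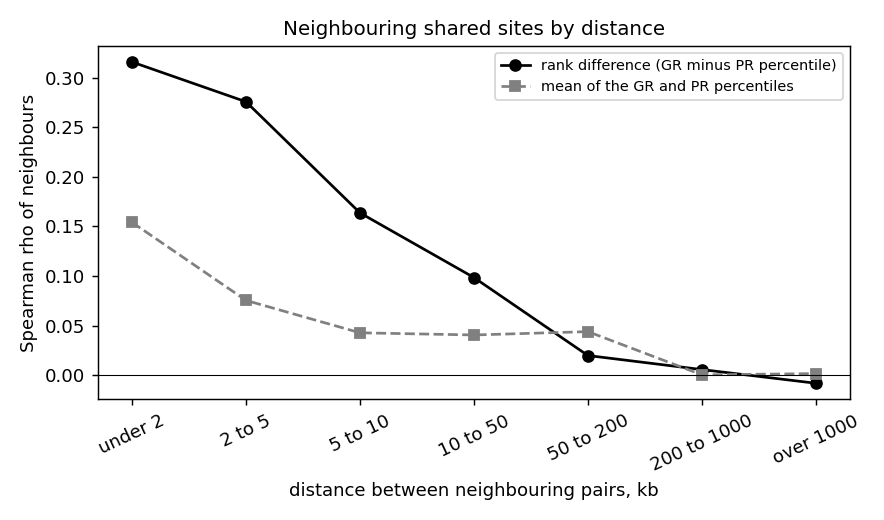
Spearman correlation between neighbouring shared sites by the distance between them, for the difference of the GR and PR percentiles (black) and for their mean (grey dashed). The black line falls from 0.32 under 2 kb to 0.02 at 50 to 200 kb and stays above the grey line up to 50 kb.

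The stretches named here were chosen after their values were seen. Around the pair on chromosome 18 that leaned furthest to GR, GR peaks lay from 77642659 to 77643283 (score 248), from 77645370 to 77645895 (757), from 77646959 to 77647652 (2101), from 77649495 to 77650068 (539) and from 77650291 to 77650796 (115). A single PR peak, of 109, lay in the same stretch. On chromosome 10 GR peaks of 1872, from 12288467 to 12289174, and of 1750, from 12289248 to 12289804, stood side by side with a single PR peak of 173. With merged regions grouped where gaps were at most 20 kb, 966 groups had at least 5 regions, and 936 of them held a region of both receptors. PR alone made up 17 groups and GR alone made up 1, while 440 groups held regions of GR alone beside regions of PR alone. Of all 32938 merged regions 13465 held both receptors, 14648 PR alone and 4825 GR alone. By these shares alone most groups of at least 5 regions would hold a shared one, so the counts are a description. On chromosome 10 from 536669 to 672429, 20 regions held 11 of GR alone, 8 of both and 1 of PR alone. On chromosome 18 from 77616117 to 77650796, 9 regions held 7 of GR alone and 0 of PR alone. All 7 regions at 34567022 to 34608040 of chromosome 14 were of PR alone, and so were 9 of 11 at 134231870 to 134298471 of chromosome 9.

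GR peaks without PR lay near the ends of chromosomes more often than GR peaks with PR. This measure was chosen after the positions of the strong ones had been seen. On chromosomes 13, 14, 15, 21 and 22 only the end of the long arm counted as an end. Within 5 Mb of the outermost peak of any list on a chromosome lay 949 of the 4825 GR peaks without PR (19.7%, 18.6 to 20.8) and 1584 of the 13590 with PR (11.7%, 11.1 to 12.2), a difference of 8.01 points (6.79 to 9.27). Of the 26 strong ones 16 did (61.5%, 40.6 to 79.8), against 13.1% (11.6 to 14.8) of strong GR peaks with PR. These 16 lay on 11 chromosomes. The difference was 6.84 points (3.66 to 9.997) in the lowest decile of the GR score, 16.7 points (10.3 to 23.9) in the eighth, 30.9 points (21.4 to 40.9) in the ninth and 48.4 points (29.3 to 64.5) in the highest. The share was higher without PR on 22 of 23 chromosomes, and leaving out each chromosome in turn gave differences from 7.57 to 8.55 points. GR-leaning pairs followed with 17.7% (14.5 to 21.2), against 11.4% (8.96 to 14.3) of PR-leaning pairs.

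For PR the order was the reverse. Within 5 Mb of the ends lay 9.80% (9.33 to 10.3) of the PR peaks without GR and 11.6% (11.1 to 12.2) of those with GR, and 12 of the 124 strong ones (9.68%, 5.10 to 16.3). In MTVL cells the share was 8.05% of all PR peaks, and of the A1-2 input peaks 11.99% (10.3 to 13.9) lay there. Among GR peaks without PR in A1-2 cells, those that were MTVL PR sites lay near the ends in 12.03% (10.2 to 14.1) of 1106 cases and the others in 21.9% (20.6 to 23.3) of 3719. Copy number and base composition, both of which can differ towards chromosome ends, were not analysed here.

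**Figure D5:**
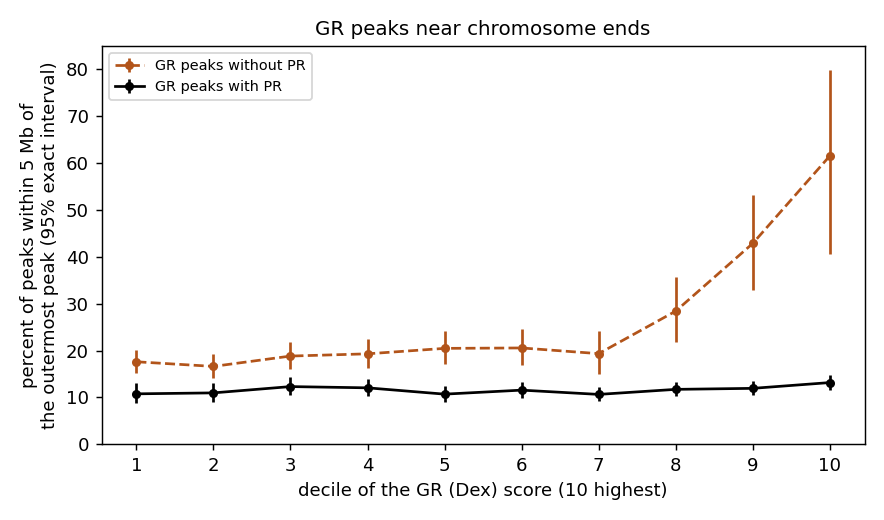
Percent of GR peaks after Dex that lay within 5 Mb of the outermost peak of their chromosome, by decile of the GR score, for peaks without PR (orange, dashed) and with PR (black). Ends were counted as in the text. Bars are 95% exact intervals over peaks. The orange points climb to 61.5% in the highest decile, which holds 26 such peaks, while the black points stay between 10.6% and 13.2%.

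Between whole chromosomes the median rank difference of the pairs (GR minus PR percentile) varied little. Both percentiles are ranked over the same pairs, so no balance between the receptors can be read from it. The median rank difference lay between -3.29 points on chromosome 19 and 2.27 points on chromosome 12, apart from chromosome 16 with 5.35 points. Part of the latter came from the dense stretch from 34 to 36 Mb, whose 183 pairs had a median of 18.2 points, against 1.68 points for the other 634 pairs of the chromosome. Shares of leaning pairs varied more. Over all pairs they were 3.94% for GR and 4.28% for PR. The GR-leaning share ran from 2.31% on chromosome 19 to 7.46% on chromosome 18. The PR-leaning share ran from 2.57% on chromosome 16 to 7.02% on chromosome 21. GR-leaning pairs outnumbered PR-leaning pairs on chromosome 16 by 47 (5.75%) to 21, of which 37 and 21 lay outside that stretch. On chromosome 18 they did so by 17 to 9 (3.95%). PR-leaning pairs were more numerous on chromosome 17, by 27 (6.96%) to 11 (2.84%). They were so on chromosome 2, by 40 (4.77%) to 21 (2.50%), and on chromosome 4, by 30 (6.45%) to 15 (3.23%). Chromosome 20 held the largest share of GR peaks without PR (31.5%, 28.3 to 34.8) and chromosome X the smallest (18.8%, 14.97 to 23.2). Of PR peaks, chromosome 19 held the largest share without GR (61.7%, 57.9 to 65.3) and chromosome 16 the smallest (42.8%, 40.3 to 45.4). The chromosomes named are the extremes of 23, and their intervals carry no adjustment for that choice.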

How the data were processed

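The hg19 build, bedtools, MACS 1.4.2 and Bowtie 1.1.1 are listed in the submitters' processing notes. No source used here gives their settings, the control library or the read depths. Each deposited file lists the peaks of 1 library with a score from the authors' peak caller, lowest 100, with a threshold of 1e-10 in the deposited name. Of 18538 deposited GR Dex peaks 12 lay outside chromosomes 1 to 22 and X and 111 at input peaks were left out, and of 28563 PR R5020 peaks 10 and 291. Samples were grouped by title.

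Pairs were mutual longest overlaps, and tied scores shared their mean rank. A pair counted as at a further list if either of its peaks overlapped it. Shares have Clopper-Pearson intervals and differences Newcombe intervals. The classes, lists and measures were chosen with earlier results of these data known. Named peaks are the 5 of highest score, or largest rank difference, in each class. Planned steps that need an hg19 genome or annotation (response elements, motifs, gene lists) were not run, and no sequence is given. Overlaps, pairs, ranks and intervals were tested on simulated data and against bedtools 2.31.1. Computations used Python 3.11.15, numpy 2.4.6, pandas 2.3.3, scipy 1.17.1 and matplotlib 3.10.9.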

Additional observations from a re-analysis of the deposited data

How the results depend on the processing

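Of 115 alternatives over 15 results, 71 stayed within the interval of the value given (or within 1.5 times for counts), and 44 moved further. Shares and counts cannot change sign, and of the differences and correlations none whose interval excluded 0 did so. The GR R5020 difference between leaning classes, whose interval held 0, changed sign in 3 of 11 alternatives, and 6 of their 11 intervals held 0. The MTVL share went up with the A1-2 PR score, by which the leaning classes were set in part. The sign of the MTVL difference between them follows from that choice, so that it kept its sign shows no stability. No paired analysis was possible because each condition had 1 library. Read depth limits every count of single-receptor peaks and was unknown.

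With peaks scoring under 200 removed from all lists, 78.8% of GR and 42.1% of PR peaks were shared, with 6940 pairs, a rank correlation of 0.52, 4.91% PR-leaning pairs, 11 strong GR peaks without PR and a GR R5020 difference of 3.34 points. With midpoints within 200 bp, 68.3% and 44.5% were shared, 47.6% among the first 1000, 195 and 355 strong peaks were unshared, and the MTVL and GR R5020 differences between leaning classes were -35.1 and -0.35 points, and -5.004 and 1.34 points in the middle PR quintile. Lists of equal length shared 61.2% and 60.9%, with a correlation of 0.52, 4.37% GR-leaning pairs, 45 strong GR and 36 strong PR peaks unshared and an MTVL difference of -25.5 points. Here strong PR peaks without GR no longer outnumbered the GR ones, because the shorter PR list has fewer peaks in its highest 10% and offers GR peaks fewer counterparts. Without peaks at untreated A1-2 peaks the GR R5020 difference was -0.49 points. Without scores of 3100 or more the correlation was 0.48, with 4.70% GR-leaning and 5.19% PR-leaning pairs. Ranks in the whole lists gave 2.52%, 7.59% and an MTVL difference of -49.8 points. Leaning from 30 points gave 13.5%, 13.8%, -30.8 and 3.41 points, and from 70 points 0.571%, 0.808%, -54.5 and -0.54 points. Strong as the highest 5% gave 8 GR and 20 PR peaks, and as the highest 25% 200 and 1140. The end difference was 5.005 points within 2 Mb, and neighbours within 10 kb had a correlation of 0.25. Alternatives without the dense stretch of chromosome 16, and all of those for chromosome ends, neighbours and quintiles, were added after seeing the data. The planned results on response elements and on peaks near fixed gene lists were not run, for lack of an hg19 genome and annotation.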
